A study of Homo sapiens with 6 samples.

Results

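The insulin-like growth factor (IGF) system was followed through 10 genes: the binding proteins IGFBP1, IGFBP2, IGFBP3, IGFBP4, IGFBP6 and IGFBP7, the receptors IGF1R and INSR, and the docking proteins IRS1 and IRS2. They were taken by symbol from the 57781 rows of the count table, and all 10 were found. RNA was sequenced from A549, an established human lung adenocarcinoma line, in 3 libraries of vector cells, whose genotype the labels give as WT, and in 3 libraries of cells with a short hairpin RNA against METTL3 (shMETTL3). All cells grew in DMEM with fetal bovine serum, and the hairpins were cloned into a pSupper-neo plasmid. METTL3 is the catalytic subunit of the complex that writes N6-methyladenosine (m6A) into mRNA, and the series asked what its loss does to gene expression. The labels give no culture dates, no clone and no number of hairpins, although the columns of the knockdown are numbered sh1 to sh3. The p-values therefore measure the spread between these libraries, which may be technical.

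IGF1, IGF2 and insulin act through receptor tyrosine kinases at the cell surface. The activated IGF1R or INSR phosphorylates IRS1 and IRS2, which recruit PI3-kinase and so switch on AKT, and AKT in turn holds FOXO transcription factors out of the nucleus. The IGFBPs are secreted proteins that hold IGFs away from the receptor, carry them or, after proteolysis, release them. They are unrelated to the IGF2BP proteins, which bind m6A-modified mRNA.

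METTL3, the knocked-down gene, was counted 887, 846 and 808 times in vector and 364, 399 and 307 times in shMETTL3 libraries. It lay at 38.8% of its vector level; TOX4 overlaps it on the opposite strand. Library totals ran from 14931426 to 19108928 counts. Levels are given as CPM, counts scaled to a common library size after edgeR's TMM normalization. A gene was called changed at an adjusted p under 0.05 in the quasi-likelihood test of edgeR, with Benjamini-Hochberg adjustment over the 15125 genes tested; SE is the standard error of a log2 fold change. By this rule 66.6% of all tested genes were called, 33.7% as higher and 32.9% as lower in the shMETTL3 libraries, so that a call by itself was the usual state of a gene in these data. Their median log2 fold change was 0.0022 and their median absolute log2 fold change 0.41.

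All 10 genes passed the filter on low counts. Of these, 5 were higher in the shMETTL3 libraries (IGFBP7, IGFBP4, IRS1, IGF1R and IGFBP6), 3 were lower (IRS2, IGFBP1 and IGFBP3), and IGFBP2 and INSR did not pass the test. The 8 calls of 10 stand beside 66.6% of all genes. The groups did not overlap for the same 8 genes, against 69.4% of all tested genes. IGFBP7, IGFBP4 and IRS1 rose by at least 1 on the log2 scale, a size that 10.2% of all tested genes reached in that direction, and no member fell by as much, against 7.42% of all tested genes. With library size alone as the scaling, under which 67.8% of all tested genes were called, 7 members were higher and 1, IRS2, was lower. IGFBP1 and IGFBP3 were no longer called, and IGFBP2 and INSR were called higher. That scaling moved all genes upward, with 6750 of the 15125 tested called higher, 3509 called lower and a median log2 fold change of 0.18. The docking proteins went in opposite directions under both scalings, while falls among the binding proteins were called under TMM and not with library size alone.

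**Figure D1:**
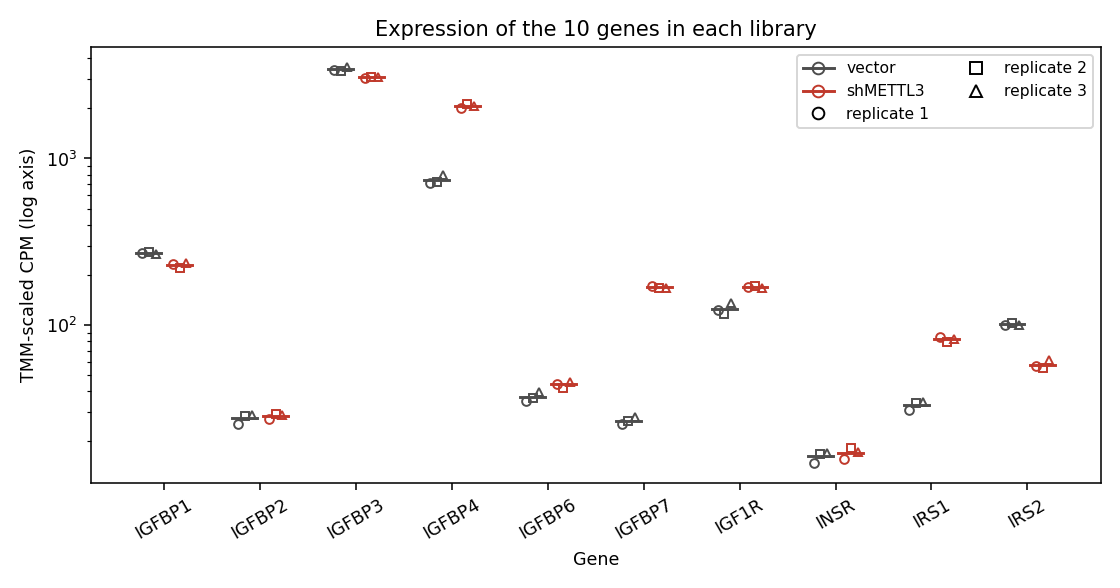
TMM-scaled CPM on a log axis for each of the 10 genes, with 1 symbol per library and a horizontal line at the mean of the 3 vector (grey) or 3 shMETTL3 (red) libraries. IGFBP7 separates furthest, from a mean of 26.6 to 168 CPM, and IGFBP2 and INSR overlap between the groups.

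IGFBP7 is a secreted protein of matrix and vessel walls that binds IGFs only weakly and also binds insulin. It was at 25.5, 26.4 and 28.0 CPM in vector replicates 1, 2 and 3 and at 171, 166 and 167 CPM in shMETTL3 replicates 1, 2 and 3. All knockdown libraries were far above all vector libraries, with little spread in either group. The rise was 6.30-fold, or 2.66 on the log2 scale (SE 0.0585, edgeR adjusted p = 1.13e-23). Among all called genes, 328 had a higher log2 fold change. IGFBP7 (ENSG00000163453, chr4:57896939-57976551 of GRCh37, minus strand) has annotated exons that overlap those of POLR2B and IGFBP7-AS1 on the opposite strand. Whether reads were counted by strand is not given in the sources used here, so reads from the overlaps cannot be assigned to a strand.

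IGFBP4, an inhibitor of IGF action that the protease PAPPA cleaves, was already abundant in the vector libraries, at 708, 726 and 797 CPM. In the shMETTL3 libraries it was at 2005, 2126 and 2073 CPM. Again the groups lay well apart. It rose by 1.48 on the log2 scale (SE 0.0533, edgeR adjusted p = 4.98e-19), or 2.78-fold. The gene (ENSG00000141753) occupies chr17:38599702-38613977 of GRCh37, plus strand.

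IGFBP6, which prefers IGF2 over IGF1, rose only a little, from 34.9, 36.4 and 39.7 CPM in the vector libraries to 44.4, 42.1 and 45.2 CPM in the shMETTL3 libraries. The lowest knockdown library was still above the highest vector library. Its log2 fold change of 0.25 (SE 0.0662, edgeR adjusted p = 0.00182) was smaller than the median absolute change of all tested genes. With library size alone it was 0.42 (edgeR adjusted p = 5.12e-06).

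IGFBP3, the main carrier of IGFs in serum, had the most counts of the 10 genes. It was at 3418, 3359 and 3537 CPM in the vector libraries and at 3054, 3091 and 3097 CPM in the shMETTL3 libraries. IGFBP1, a binding protein whose transcription insulin represses in liver, was at 269, 275 and 266 CPM in the vector libraries and at 231, 221 and 235 CPM in the shMETTL3 libraries. Both were slightly lower, without overlap between groups. The log2 fold change was -0.16 for IGFBP3 (SE 0.0479, edgeR adjusted p = 0.00504) and -0.24 for IGFBP1 (SE 0.0490, edgeR adjusted p = 0.000118). These small falls depended on the scaling. With library size alone, under which the median over all tested genes was 0.18, IGFBP3 was at 0.017 (edgeR adjusted p = 0.755) and IGFBP1 at -0.063 (edgeR adjusted p = 0.275).

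IGFBP2, a binding protein that also contacts integrins, was at 25.6, 28.5 and 28.8 CPM in the vector libraries and at 27.4, 29.3 and 28.8 CPM in the shMETTL3 libraries. The groups overlapped. Its log2 fold change was 0.047, with a 95% confidence interval from -0.10 to 0.20 (edgeR adjusted p = 0.584). With library size alone it was called higher, at 0.22 (edgeR adjusted p = 0.00922). With 1 library omitted at a time it ran from -0.014, without vector replicate 1, to 0.077, and it was not called in any of these 6 fits.

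Some IGFBP genes are neighbours. IGFBP1 and IGFBP3 lie 18584 bases apart on chromosome 7 of GRCh37, on opposite strands, and had the small log2 fold changes of -0.24 and -0.16. IGFBP2 and IGFBP5 lie 7668 bases apart on chromosome 2, also on opposite strands. IGFBP5, a matrix-bound binding protein that is not one of the 10 genes, was counted 60, 43 and 49 times in vector and 816, 916 and 702 times in shMETTL3 libraries. While IGFBP2 was at 0.047, IGFBP5 rose by 3.88 on the log2 scale (SE 0.102, edgeR adjusted p = 3.81e-22). No test was run on the difference between neighbours.

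**Figure D2:**
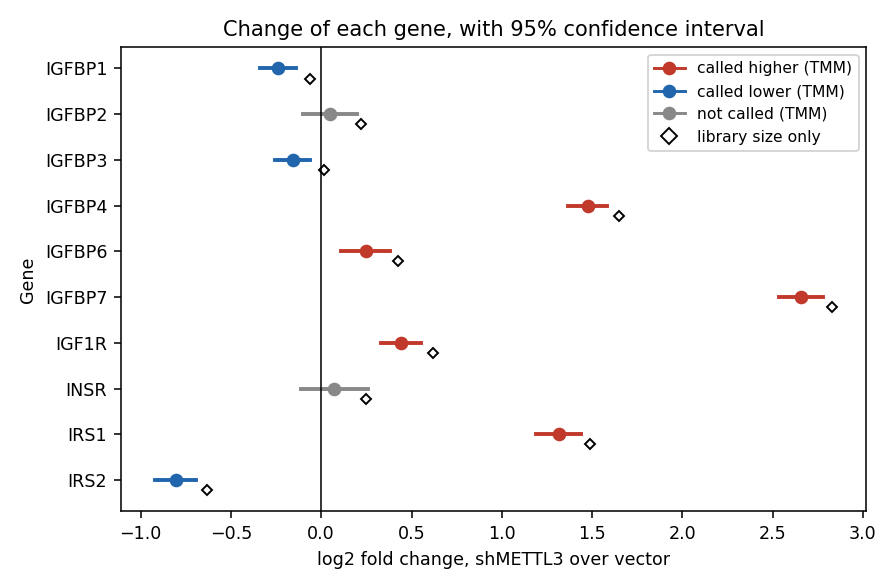
Log2 fold change of shMETTL3 over vector for each of the 10 genes under TMM scaling (filled points, bars for the 95% confidence interval) and with library size alone (open diamonds, no interval). IGFBP7, IGFBP4 and IRS1 lie above 1 under both, while the diamonds of IGFBP1 and IGFBP3 sit close to 0.

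Levels of different genes were compared as CPM per kilobase of the Ensembl canonical transcript in GENCODE. In the vector libraries the order was IGFBP3 (1316 ± 34.8 CPM per kb, SD, n = 3), IGFBP4 (337 ± 21.4), IGFBP1 (179 ± 3.16), IGFBP6 (39.1 ± 2.62), IGFBP2 (19.5 ± 1.26), IGFBP7 (18.7 ± 0.887), IRS2 (12.4 ± 0.277), IGF1R (10.2 ± 0.762), IRS1 (3.38 ± 0.187) and INSR (1.72 ± 0.127). IGFBP2 and IGFBP7 differed by less than their SDs. In the shMETTL3 libraries the order was IGFBP3 (1179 ± 8.90 CPM per kb, SD, n = 3), IGFBP4 (938 ± 27.4), IGFBP1 (151 ± 4.71), IGFBP7 (118 ± 1.95), IGFBP6 (46.4 ± 1.72), IGFBP2 (20.2 ± 0.697), IGF1R (13.8 ± 0.233), IRS1 (8.40 ± 0.275), IRS2 (7.07 ± 0.396) and INSR (1.80 ± 0.141). IGFBP7 thus moved past IGFBP6, and IRS1 past IRS2. The place of IGFBP2 rests on the transcript chosen. Over the union of all annotated exons it stood at 5.83 CPM per kb in the vector libraries, below IGFBP7 (13.8 CPM per kb), IRS2 and IGF1R. So does the order of the leading pair: over the union of exons, IGFBP3 stood at 752 and IGFBP4 at 337 CPM per kb in the vector libraries, but IGFBP3 at 674 and IGFBP4 at 938 CPM per kb in the shMETTL3 libraries. The isoforms in these cells were not measured.

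The make-up of the binding-protein transcripts differed between the groups. Among the 6 IGFBP members and IGFBP5 together, IGFBP3 took 68.9% ± 0.566 (SD, n = 3) of the summed counts per kb in the vector libraries and 47.9% ± 0.278 in the shMETTL3 libraries. IGFBP4 went from 17.7% ± 0.631 to 38.1% ± 0.667, and IGFBP7 from 0.978% ± 0.0234 to 4.79% ± 0.141. The share of IGFBP1 went from 9.36% ± 0.412 to 6.16% ± 0.230, and that of IGFBP5 from 0.0250% ± 0.00328 to 0.287% ± 0.00781. Shares do not depend on the scaling between libraries, but they do on the lengths used. Over the union of exons, IGFBP3 went from 57.8% ± 0.632 to 35.8% ± 0.291 and IGFBP4 from 25.9% ± 0.863 to 49.8% ± 0.755. The summed level of the 7 genes ran from 1874 to 1973 CPM per kb in the vector libraries and from 2424 to 2482 CPM per kb in the shMETTL3 libraries. With either length the share of IGFBP3 was lower and that of IGFBP4 higher in every shMETTL3 library than in any vector library.

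**Figure D3:**
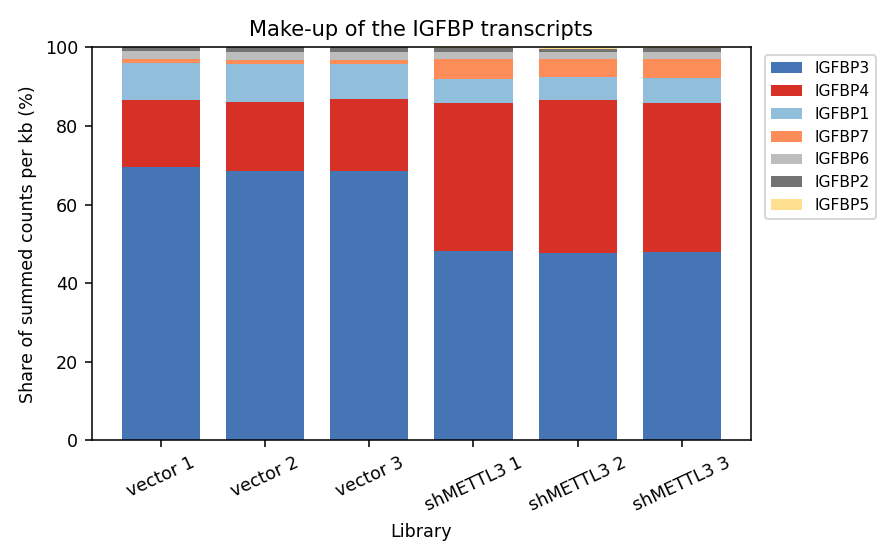
Stacked bars of the share of each of 7 IGFBP genes in their summed counts per kilobase of canonical transcript, in percent, with 1 bar per library. IGFBP3 (blue) takes between 68.6% and 69.6% of each vector bar and between 47.7% and 48.2% of each shMETTL3 bar, and IGFBP4 (red) fills most of the difference.

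IGF1R, the main receptor for IGF1 and IGF2, was at 123, 116 and 135 CPM in the vector libraries and at 169, 172 and 167 CPM in the shMETTL3 libraries. Each knockdown library was above each vector library. Its rise was 0.44 on the log2 scale (SE 0.0548, edgeR adjusted p = 6.44e-08), or 1.36-fold. IGF1R (ENSG00000140443) spans chr15:99191768-99507759 of GRCh37, plus strand.

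INSR, the insulin receptor, was the lowest of the 10 genes, at 14.9, 16.9 and 17.0 CPM in the vector libraries and 15.7, 18.4 and 17.2 CPM in the shMETTL3 libraries. The groups overlapped. Its log2 fold change was 0.073, with a 95% confidence interval from -0.11 to 0.26 (edgeR adjusted p = 0.487), and with library size alone it was called higher at 0.25 (edgeR adjusted p = 0.0177). It was 0.0042 without vector replicate 1, 0.015 without shMETTL3 replicate 2 and 0.13 without shMETTL3 replicate 1, and was called in none of the 6 fits that omit a library. The ratio of INSR to IGF1R counts within a library needs no scaling. Its log2 value was -2.94 ± 0.136 (SD, n = 3) with the vector and -3.31 ± 0.104 with shMETTL3, a difference of -0.37 without overlap between groups. An exact permutation test (two-sided) gave 0.1, the smallest p that this test can give with 3 libraries against 3, so the test cannot reach 0.05.

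The docking proteins changed in opposite directions. IRS1, which the activated receptors phosphorylate to start PI3-kinase signalling, was at 30.9, 33.9 and 34.3 CPM in the vector libraries and at 84.8, 79.4 and 82.0 CPM in the shMETTL3 libraries. IRS2, its paralog with a central part in liver and pancreatic beta cells, was at 99.3, 103 and 99.6 CPM in the vector libraries and at 57.0, 54.9 and 61.2 CPM in the shMETTL3 libraries. For both genes the groups lay apart. IRS1 rose by 1.31 on the log2 scale (SE 0.0611, edgeR adjusted p = 1.21e-16), or 2.49-fold. The log2 fold change of IRS2 was -0.81 (SE 0.0560, edgeR adjusted p = 7.91e-13), which left it at 57.3% of the vector level. In GRCh37, IRS1 (ENSG00000169047) occupies chr2:227596028-227664536 and IRS2 (ENSG00000185950) chr13:110405042-110438930, both read from the minus strand. An annotated exon of a noncoding gene overlaps IRS2 on the opposite strand.

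Their balance therefore reversed. With the vector, IRS2 was counted 1783, 1727 and 1625 times, against 555, 566 and 559 for IRS1. With shMETTL3, IRS2 was counted 1101, 1100 and 972 times, against 1637, 1592 and 1302 for IRS1. The log2 ratio of IRS2 to IRS1 counts was 1.61 ± 0.0721 (SD, n = 3) in the vector and -0.51 ± 0.0781 in the shMETTL3 libraries. IRS2 outnumbered IRS1 in every vector library, and IRS1 outnumbered IRS2 in every knockdown library. Per length, the ratio of IRS2 to IRS1 went from 3.66 to 0.842. The difference of -2.12 on the log2 scale was the largest of the 4 ratios taken, followed by -1.64 for IGFBP3 to IGFBP4, -0.37 for INSR to IGF1R and 0.20 for IGFBP6 to IGFBP2. Each of the 4 had an exact permutation p of 0.1 (two-sided, the smallest possible), and 0.1 after adjustment over the 4.

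**Figure D4:**
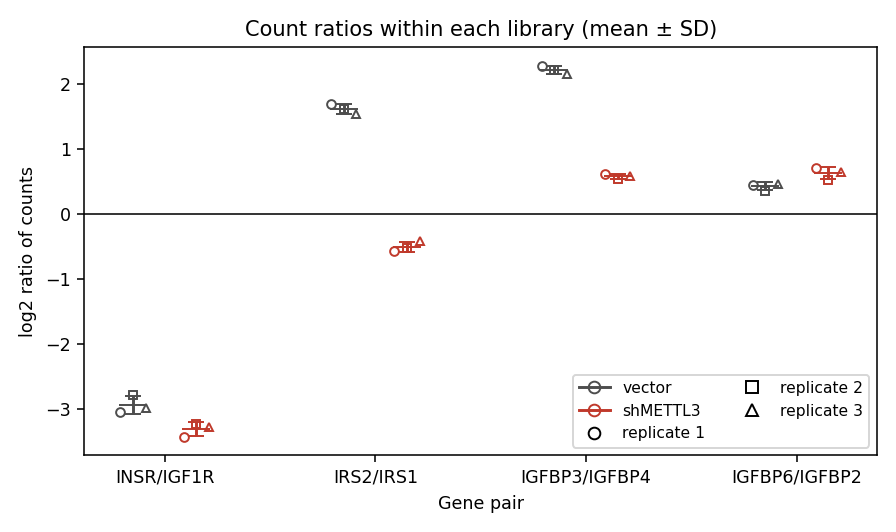
Log2 ratio of counts of 4 gene pairs within each library, with 1 symbol per library, and the mean with SD bars of the 3 vector (grey) and 3 shMETTL3 (red) libraries. Only IRS2/IRS1 crosses the zero line, from 1.61 to -0.51, and the groups do not overlap for any of the pairs.

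The messages were also read for GGACT, the DNA form of GGACU, a sequence in which METTL3 often methylates the central A. It was searched on the coding strand of the canonical GENCODE transcript. IGFBP4 held 4 copies, or 1.81 per kb, and IRS1 and IRS2 held 9 and 7 copies, or 0.921 and 0.858 per kb. IGFBP7 held none, as did 8.17% of the 12475 tested protein-coding genes with a transcript, whose median was 0.922 per kb. The other members had from 0.383 per kb in IGFBP3 to 2.11 per kb in IGFBP6. The member with the largest rise thus had no copy, and the members with 9 copies were IGF1R and IRS1. IGFBP5, which is not a member, also held 9 copies, or 1.44 per kb. It rose more than IGFBP7, by 3.88 on the log2 scale. A link between copies of the motif and the changes was not tested. The sites closest to the stop codon in 3 of the genes with the largest changes are shown on the sense strand with the GGACT in capitals, because m6A is known to gather near stop codons.
IGFBP4: caggccagGGACTcagcgtcc
IRS1: ttggtcaaGGACTtcaaacag
IRS2: acatctgtGGACTctgttaga
The IGFBP4 site, chr17:38612846-38612866 of GRCh37, lies in the 3′UTR in exon 4 of 4, with its central A 21 bases after the stop codon. The IRS1 site, chr2:227659885-227659905, is in the coding part of exon 1 of 2, with its central A 169 bases before the last base of the stop codon. The IRS2 site, chr13:110408500-110408520, lies in the 3′UTR in exon 2 of 2, with its central A 141 bases after the stop codon. IRS1 and IRS2 changed in opposite directions with a like density of the motif. Methylation was not measured in these libraries.

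Promoters were taken from RefSeq (GRCh38.p14), from 250 bases before to 50 bases after the start, and 8 of the 10 genes had an entry (not IGFBP1 and IGFBP7). Each was searched on both strands for CAAAACA, the core of the insulin response element, and for GTAAACA, a FOXO consensus core. CAAAACA was found in IRS2 and in no other of the 8 genes, and 4.92% of 35116 promoters hold it. GTAAACA was found in IGFBP6 and in no other of the 8 genes, and 3.42% of promoters hold it. Both windows are printed in the direction of transcription with the match in capitals, since FOXO control of this gene group is textbook knowledge.
IRS2: agtcacatgtTGTTTTGctcttcttag
IGFBP6: aatttgggaaGTAAACAgaaactggaa
The IRS2 match reads as the reverse complement and spans bases -40 to -34 from the RefSeq start, and its window matched GRCh37 once, at chr13:110438954-110438980. The IGFBP6 match spans bases -186 to -180 from the RefSeq start, and its window matched chr12:53491255-53491281 of GRCh37. That window lies upstream of the RefSeq start only: GENCODE begins IGFBP6 at 53491220, so by its annotation the window is inside the gene. IRS2 was lower and IGFBP6 slightly higher in the knockdown. A match of 7 letters is a description of the sequence only.

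Beyond the 10 genes, 14 other genes of the IGF system were listed: ligands, receptors, further binding proteins, and proteases with their inhibitors. Of these, 7 were tested and all 7 were called higher in the shMETTL3 libraries, with a median log2 fold change of 1.54, against 33.7% of all tested genes called higher. The list was chosen with earlier results of these data known, so this contrast describes the list and is no test. IGF2 passed the filter on low counts through its shMETTL3 libraries alone, so its call was bound to follow. Without it the median was 1.28 over 6 genes, which were IGFBP5, described above, PAPPA, STC1, STC2, CTSD and IGF2R. PAPPA, the metalloprotease that cleaves IGFBP4, had 1678, 1484 and 1550 vector counts and 5214, 5508 and 4162 shMETTL3 counts, and it has an antisense neighbour, PAPPA-AS1. STC1 and STC2, secreted stanniocalcins that inhibit PAPPA, rose with it. The log2 fold changes were 1.54 for PAPPA (edgeR adjusted p = 1e-19), 1.60 for STC1 (edgeR adjusted p = 7.69e-20) and 1.02 for STC2 (edgeR adjusted p = 1.14e-13). The substrate IGFBP4, its protease and the inhibitors of that protease were therefore all higher in the same libraries. CTSD, a lysosomal protease that can degrade IGFBPs when secreted, rose by 0.66 on the log2 scale (edgeR adjusted p = 4.74e-10).

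Among the ligands, IGF2 was counted 6, 6 and 0 times in vector and 103, 112 and 78 times in shMETTL3 libraries, a fitted log2 change of 4.45 (SE 0.330, edgeR adjusted p = 2.59e-12). So close to 0 this value is imprecise: omitting 1 library at a time gave 3.90 to 4.86. IGF2 shares exons with the readthrough gene INS-IGF2, so part of its reads may have gone uncounted. IGF1, counted 1, 2 and 1 times in vector and 3, 6 and 0 times in shMETTL3 libraries, was not tested, and INS had 0 counts in every library. A library with 3 counts stands at 0.150 to 0.189 CPM, so lower levels were not detectable at this depth, counting error only. IGF2R, which clears IGF2 into lysosomes, was called higher at a log2 fold change of 0.13 (edgeR adjusted p = 0.0338), although its groups overlapped and the call was lost under 6 of 14 alternatives, among them DESeq2 (adjusted p = 0.052) and leaving out vector replicate 1 (edgeR adjusted p = 0.151), vector replicate 2 (0.158), shMETTL3 replicate 2 (0.0912) or shMETTL3 replicate 3 (0.112). IGFBPL1 had 1, 6 and 2 against 10, 6 and 13 counts and IGFALS, the acid-labile subunit, 1, 6 and 3 against 13, 10 and 8 counts, and neither was tested. PAPPA2 had at most 1 count, and INSRR and IRS4 had 0 counts in every library.

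The signalling genes behind the receptors did not move as a block. Of 18 receptor-proximal adaptors and regulators, all tested, 5 were higher, 4 lower and 9 did not pass, or 50% called against 66.6% of all tested genes, and their median log2 fold change was -0.019. The largest changes were those of NEDD4, a ubiquitin ligase whose complex with GRB10 acts on IGF1R, at 1.37 (edgeR adjusted p = 1.77e-15), of GRB14, an adaptor that inhibits the insulin receptor, at 0.86 (edgeR adjusted p = 2.03e-11), and of RACK1, a scaffold that binds IGF1R and the ribosome, at -0.77 (edgeR adjusted p = 7.87e-14).

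In the PI3K-AKT-mTOR list, 28 of 29 genes were tested, with 9 higher, 10 lower and 9 that did not pass, and a median log2 fold change of -0.049. The 67.9% called was close to the 66.6% of all tested genes. Negative regulators were among the falls. The log2 fold change was -1.45 for DEPTOR, an inhibitor within the mTOR complexes (edgeR adjusted p = 1.78e-10), -1.08 for EIF4EBP1, the translation repressor that mTOR inactivates (edgeR adjusted p = 4.44e-14), and -1.07 for PHLPP1, a phosphatase that dephosphorylates AKT (edgeR adjusted p = 1.02e-13).

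FOXO factors and genes that FOXO activates were listed because FOXO connects insulin signalling back to IRS2, INSR and IGFBP1. Of 19 genes, 17 were tested, with 4 higher, 8 lower and 5 that did not pass, and a median log2 fold change of -0.23. Over all tested genes, 33.7% were higher and 32.9% lower. The number higher was 2 without shMETTL3 replicate 1, without shMETTL3 replicate 3 or with no filter, while 8 were lower in each of these. Without PCK1, which passed the filter only through its shMETTL3 libraries, 3 of 16 were higher and the median was -0.33. TXNIP, an inhibitor of thioredoxin and of glucose uptake, was at -1.40 (edgeR adjusted p = 4.9e-19), and SOD2, the mitochondrial superoxide dismutase, at 1.99 (edgeR adjusted p = 4.54e-22). PCK1, a gluconeogenic enzyme, had 5, 6 and 11 against 19, 16 and 14 counts, a log2 fold change of 1.03 (edgeR adjusted p = 0.0275). PCK1 kept its call under 7 of 13 alternatives, and lost it with DESeq2 (adjusted p = 0.0836), without a filter (0.0522), and without vector replicate 1 (0.138), vector replicate 2 (0.0909), shMETTL3 replicate 1 (0.0898) or shMETTL3 replicate 3 (0.0555). SOD2 has annotated exons that overlap WTAP and ACAT2 on the opposite strand. With library size alone, the adaptors were split into 9 higher and 3 lower, the PI3K-AKT-mTOR genes into 13 and 8, and the FOXO list into 5 and 7. Their medians were 0.16, 0.13 and -0.057. Under that scaling 6750 of all 15125 tested genes were called higher and 3509 lower, with a median of 0.18.

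**Figure D5:**
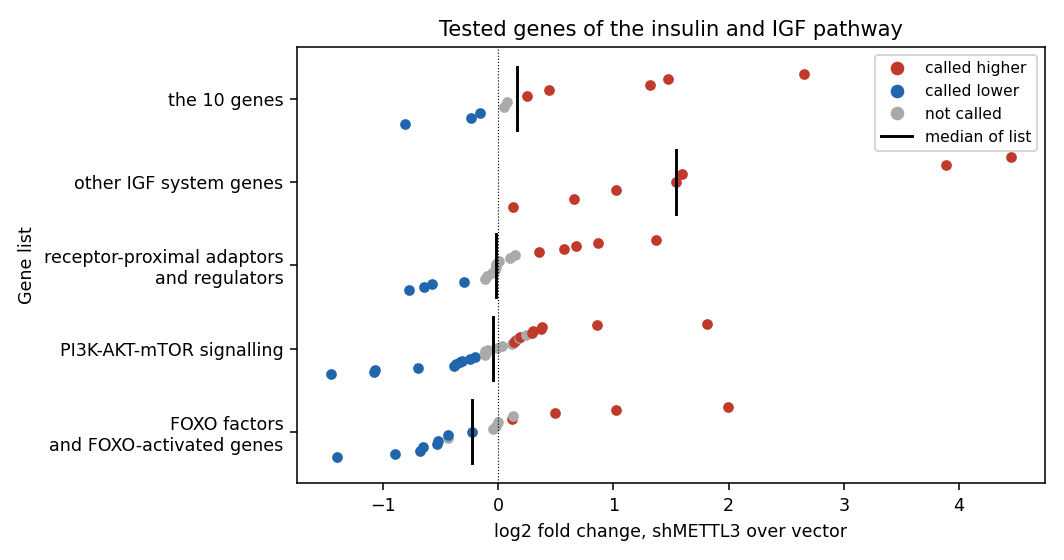
Log2 fold change of every tested gene of the 10 members and of the 4 pathway lists, 1 point per gene, coloured by call, with a black line at the median of each list. The 7 tested genes of the wider IGF system all lie to the right of 0, with a median of 1.54 (1.28 without IGF2, which passed the filter on low counts only through its shMETTL3 libraries), while the lists of signalling genes spread to both sides with medians of -0.019, -0.049 and -0.23. The lists were chosen with earlier results of these data known.

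IGFBP4, IGFBP5 and IGFBP7 are also expressed by fibroblasts and endothelial cells, so marker genes of other cell types were read beside them. The summed level of 7 fibroblast markers was 6.69 to 9.93 CPM in the vector libraries and 15.2 to 16.4 CPM in the shMETTL3 libraries, with COL1A1 and THY1 called higher of 3 tested, and with COL1A2 at 0 in 5 of the 6 libraries. Of the endothelial markers read, CDH5 had 0, 0 and 2 against 30, 28 and 30 counts, and VWF was at 0 in every library. Among 5 leukocyte markers, CD14 was called higher, from 6, 5 and 16 to 125, 117 and 105 counts, and PTPRC had at most 1 count. THY1, CDH5 and CD14 passed the filter on low counts only through the shMETTL3 libraries, so their calls were bound to follow. The summed level of 6 epithelial markers was 9971 to 10634 CPM in the vector and 5153 to 5602 CPM in the shMETTL3 libraries. KRT8, KRT18, KRT19, EPCAM and CDH1 were lower and KRT7 was higher. The part of these differences in the changes of the IGF genes was not tested. Fewer cells that express a gene and less RNA per cell cannot be told apart in these libraries.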

How the data were processed

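RNA was sequenced from 3 vector and 3 shMETTL3 A549 libraries. The authors deposited whole-number counts per gene, without normalization; per the labels (the submitters' processing notes) reads were trimmed with cutadapt 3.0, mapped to hg19 with HISAT2 2.2.1 and counted with HTSeq 0.13.5. The methods of the paper name other versions of both. Annotation and strand setting are not given in the sources used here. Every count column was used; totals ran from 14931426 to 19108928 counts. Groups and replicate numbers came from the sample titles.

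The counts went into edgeR 4.0.16 (R 4.3.3) with filterByExpr, TMM factors and a quasi-likelihood fit with group as the sole term, over 15125 genes. A standard error is the unshrunk log2 fold change divided by the root of F. Ratios were log2 of counts plus 0.5. Alternatives were other scalings and filters, DESeq2 1.42.0, limma-voom (limma 3.58.1), a replicate block and each library left out. The functions were tested on simulated counts.

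Positions and transcript lengths came from GENCODE v44 lifted to GRCh37, the build of hg19. One older symbol was matched through RefSeq synonyms. PECAM1, a listed endothelial marker, was not analysed here.

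Members and lists were chosen with earlier results of these data known. The genes named were METTL3, the 10 members, the further IGF system genes with over 3 counts in any library, the called genes of the other lists with an absolute log2 fold change of at least 1 or, where fewer than 3, the 3 largest, and the cell type markers. INS, INSRR, IRS4 and PAPPA2, which the rule does not name, were added for completeness after their values were seen. A gene that this rule names is not reported here. The groups differed more than replicates did: chi-square values per degree of freedom ran from 2.64 to 6.90 within groups and from 71.7 to 89.1 between them.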

Additional observations from a re-analysis of the deposited data

How the results depend on the processing

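METTL3, IGFBP4, IGFBP6, IGFBP7, IGF1R, IRS1 and IRS2 stayed in the same direction with adjusted p below 0.05 (edgeR, DESeq2 or limma-voom) under all 14 alternatives. Scaling by library size alone raised IGFBP6 from 0.25 to 0.42 and changed the call or direction of the other 4: IGFBP1 was at -0.063 (adjusted p = 0.275) and no longer called, IGFBP3 turned to 0.017 (adjusted p = 0.755), and IGFBP2 at 0.22 (adjusted p = 0.00922) and INSR at 0.25 (adjusted p = 0.0177) became called. That scaling raised the median of all tested genes to 0.18, with 6750 genes called higher and 3509 lower, against 5090 and 4977 under TMM. Over all their alternatives, the adjusted p ran from 3.13e-06 to 0.275 for IGFBP1, from 0.000227 to 0.755 for IGFBP3, from 0.00922 to 0.885 for IGFBP2 and from 0.0177 to 0.973 for INSR. With each library left out in turn, IGFBP2 ran from -0.014, without vector replicate 1, to 0.077, and INSR from 0.0042, without vector replicate 1, to 0.13, and neither was called in any of these 6 fits. The number of changed genes ran from 9076 to 10648, and the called genes of the lists stayed within 1.5 times their number, although the FOXO genes called higher fell from 4 to 2 in 3 alternatives. Deviations of same-numbered libraries had correlations of 0.0507, -0.00575 and 0.0332, against -0.0593 to 0.0253 for libraries of different number. No strong shared deviation was seen, but 3 libraries per group cannot show whether the numbers pair them. A replicate block gave 10111 changed genes and changed no call of a member. INSR, the lowest member, had 267 to 368 counts per library, which limits its interval.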
